A study of Homo sapiens with 18 samples.

Results

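The quantity described here is how the difference between cells with low and with high GFP changed from 24 to 48 h in Raji cells. For each gene it is the log2 fold change of GFP low against GFP high at 48 h minus the same value at 24 h, and it is called the change below. It was computed for all genes from 12 of the 18 libraries of the series, and 16474 genes had enough reads to be tested. Raji is an established human B cell line from Burkitt lymphoma, a tumour of germinal centre B cells. The 4 groups were GFP_HIGH at 24 h, GFP_LOW at 24 h, GFP_HIGH at 48 h and GFP_LOW at 48 h, with 3 libraries each. Every group carries the genotype label Smarca4+/+, and the design text places all of them in a system in which auxin directs tagged SMARCA4 protein to breakdown. What GFP reports, which groups received auxin, how the fractions were separated, and whether the line is 1 clone remain unstated in the sources used here. Some deposited column names hold the term GFPBRG1, and BRG1 is another name of SMARCA4, but they do not say what GFP reports. Values are therefore set out by GFP level alone, and which fraction had less SMARCA4 protein is not stated. The 6 libraries at 72 h entered the estimate of spread and are shown side by side.

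SMARCA4, also called BRG1, is the motor of the BAF complexes, which slide or evict nucleosomes and so open enhancers and promoters. In germinal centre B cells, which alternate between a dividing dark zone state and an antigen-testing light zone state, these complexes act beside factors such as BCL6 and NF-kB. Total RNA was depleted of ribosomal RNA before sequencing, a method that also keeps transcripts without a poly(A) tail, among them those of the histone genes that are used in S phase.

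The 12 libraries held 28650906 to 55419458 counts in genes, and libraries of a group varied little beyond sampling (common biological coefficient of variation 3.49%), which lets small differences pass the test. Separate cultures are not named in the labels, so p-values measure the spread among these libraries only, and that spread may be technical. Levels are given as CPM, counts scaled to a common library total, in the order of the unnumbered library set, set 1 and set 2 of the deposited column names. The text writes values at 2 times as log2 fold changes of GFP low against high, ± SE from the fitted model, and calls a gene at an adjusted p under 0.05 from the quasi-likelihood test of edgeR, adjusted by Benjamini and Hochberg. All 8 B cell markers were expressed, with a summed level of 3920 to 4860 CPM in the libraries at 24 and 48 h. In bulk RNA, fewer cells of a type and less RNA per cell cannot be told apart.

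Most of the change was a loss of the difference seen at 24 h. Of 16474 tested genes, 7159 (43.5%) were called in the change, 3636 (22.1%) upward, which is towards GFP low, and 3523 (21.4%) downward. Of the called genes, 4519 (27.4% of tested genes) differed at 24 h and were no longer called at 48 h, and 1001 (6.08%) kept the direction with a smaller size. These faded differences made up 77.1% of the called genes. A further 833 genes reversed, meaning that they were called at both times with opposite signs, which is 11.6% of the called genes and 5.06% of the genes tested. Another 111 differences (0.674% of tested genes) grew in the same direction, 480 (2.91%) appeared at 48 h, and 215 (1.31%) were called in the change without a call at either time. The median absolute log2 fold change of all tested genes was 0.312 at 24 h and 0.125 at 48 h.

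The class of a gene depends on the call at each time, and a lost call is not a test that the difference was gone. Among the 4519 genes that faded to no call, 2499 had the opposite sign at 48 h. In the 1001 that faded in part, the difference at 48 h had a median of 35.4% of that at 24 h. A further 1099 genes were called at both times with the same sign and not in the change. With the library set as a block, which pairs the libraries, 1520 genes reversed, 1641 faded in part and 201 grew. Of the 833 reversals, 831 were also reversals in that fit.

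**Figure D1:**
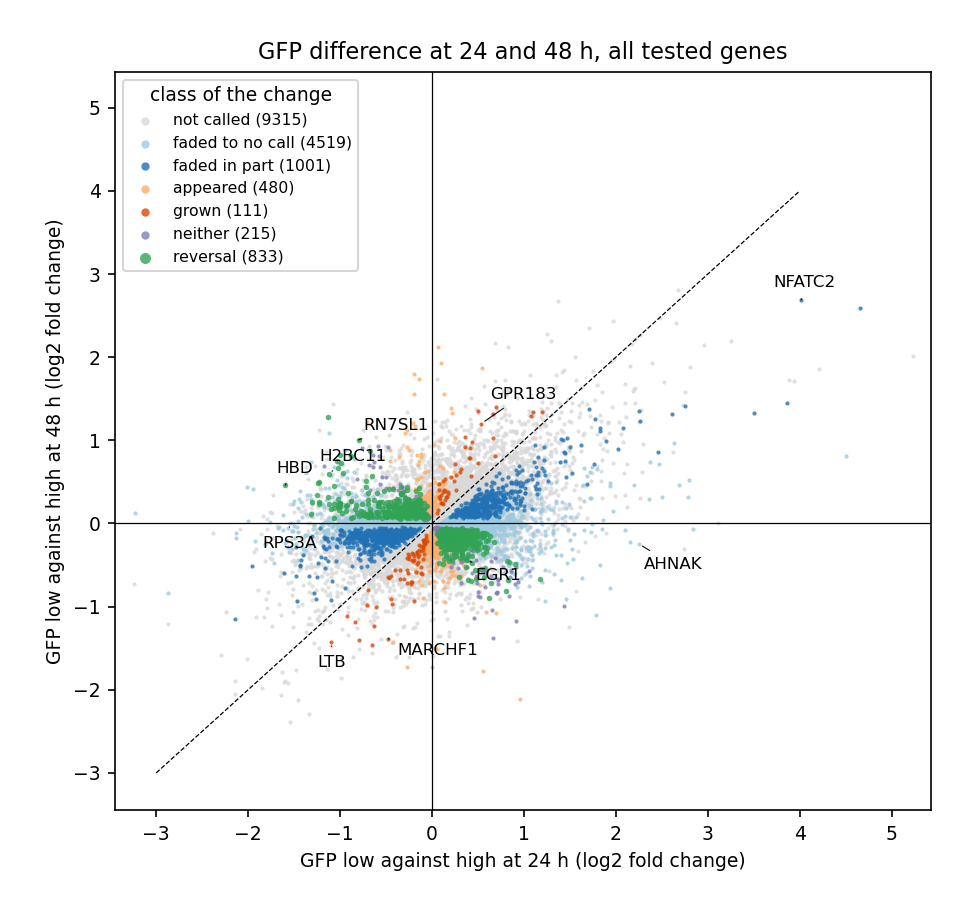
Each point is 1 of the 16474 tested genes, placed by its log2 fold change of GFP low against high at 24 h (x axis) and at 48 h (y axis), and coloured by class. Points near the horizontal line at 0 had faded, points near the dashed diagonal held, and the 833 reversals lie at the upper left and lower right.

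The GFP low cells moved more between the times than the GFP high cells. From 24 to 48 h, 8373 genes (50.8%) were called within GFP low and 3388 (20.6%) within GFP high, or 5394 within GFP high with the library set as a block. Of the 7159 genes called in the change, 4541 were called with time in GFP low alone, 629 in GFP high alone, 1208 in both with opposite signs and 458 in both with the same sign. The absolute time change was larger in GFP low for 82.9% of the called genes, with medians of 0.319 in GFP low and 0.0875 in GFP high on the log2 scale. These time changes use the same 12 libraries as the change itself and are its parts, not a second line of evidence.

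Reversals were small as a rule. Of the 833, 517 (3.14% of tested genes) were higher in GFP low at 24 h and lower at 48 h, and 316 (1.92%) went the other way. At both times 93 of them differed by at least 1.2-fold, 15 by at least 1.5-fold and 1 by at least 2-fold. The 3 and 3 libraries did not overlap at either time for 784 of the 833 (94.1%), which the calls at both times largely fix. At 72 h, 276 were called in the direction of 48 h, 86 in that of 24 h and 471 were not called; 26.4% of all tested genes were called at that time. Called again in the direction of 24 h were 75 of the 517 that began higher and 11 of the 316 that began lower; this difference was not tested.

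The replication-dependent histone genes had the largest median change of the lists that are not cell type markers, and most of them reversed. These genes supply the histones that package newly copied DNA, and their transcripts end in a stem-loop in place of a poly(A) tail. Of 47 tested genes, 45 were called upward in the change and none downward (22.1% and 21.4% of all tested genes were). The median change was 1.25 against -0.02 for all tested genes. The median difference of the histone genes was -1.02 at 24 h and 0.21 at 48 h. At 24 h 46 of the 47 were lower in GFP low (28.5% of all tested genes were), at 48 h 34 were higher (10.6% of all) and none lower, and 34 reversed while 11 faded to no call. The 2 without a call in the change, named here after their values were seen, were H2AC17 (-1.26 at 24 h and -0.34 at 48 h) and H3C6 (-0.31 and -0.25). The histone movement came from both fractions: with time, 45 of the 47 rose in GFP low (25.7% of all tested genes did), with a median of 0.52, and 45 fell in GFP high (9.97% of all did), with a median of -0.68. At 72 h 44 of 47 were higher in GFP low and none lower, with a median of 0.47.

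The core histones H2A, H2B, H3 and H4 form the spool around which DNA is wound, and H1 binds the linker DNA between spools. Of 43 core genes 33 reversed: 10 of 12 for H2A, 8 of 13 for H2B, 6 of 8 for H3 and 9 of 10 for H4. Only 1 of 4 H1 genes reversed, the others fading to no call; a difference between the families was not tested. The H1 genes moved most in GFP low, with a median time change of 1.03 there and -0.25 in GFP high, whereas H4 genes had 0.45 and -1.04.

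H2BC11, a core histone H2B gene, was the clearest case in single libraries. Its level in GFP high was 162, 155 and 167 CPM at 24 h and 81.8, 80.9 and 82.6 CPM at 48 h, and in GFP low 74.2, 72.0 and 75.4 CPM and then 125, 120 and 126 CPM. The fractions did not overlap at either time, a condition for the reversals taken by size, and changed places between them. Its difference went from -1.13 ± 0.03 to 0.60 ± 0.03, a change of 1.72 ± 0.05 (adjusted p = 5.27e-17). The linker gene H1-5 lay at 680, 658 and 713 CPM in GFP high and 222, 213 and 230 CPM in GFP low at 24 h. By 48 h the levels were 593, 575 and 633 CPM in GFP high and 561, 559 and 588 CPM in GFP low, where the fractions overlapped. Its difference went from -1.62 ± 0.04 to -0.08 ± 0.04, a change of 1.55 ± 0.06 (adjusted p = 4e-15). It was not called at 48 h, but in each of the 3 sets GFP low lay below GFP high, and with the library set as a block or the length trend removed H1-5 was called lower at 48 h and faded in part. H4C3, an H4 gene, passed from -1.02 ± 0.04 to 0.66 ± 0.04, and H3C8, an H3 gene, from -1.24 ± 0.05 to 0.48 ± 0.05. H4 genes resemble each other, and the sources used here do not say how reads that match several of them were counted.

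The promoters of these 2 genes are shown as an example of a gene that reversed and of one that faded; 2 sequences do not stand for their families. The 250 bases before each gene's start are given as RefSeq lists them on GRCh38.p14, read along the minus strand on which both genes lie, H2BC11 at chr6:27132796-27133045 and H1-5 at chr6:27867589-27867838. Capitals mark the octamer ATTTGCAT bound by OCT factors, the box CCAAT and the box TATAAA, each searched on both strands, so that ATTGG is CCAAT read from the other strand and TTTATA is TATAAA; where 2 matches overlap they form a single run of capitals.
H2BC11: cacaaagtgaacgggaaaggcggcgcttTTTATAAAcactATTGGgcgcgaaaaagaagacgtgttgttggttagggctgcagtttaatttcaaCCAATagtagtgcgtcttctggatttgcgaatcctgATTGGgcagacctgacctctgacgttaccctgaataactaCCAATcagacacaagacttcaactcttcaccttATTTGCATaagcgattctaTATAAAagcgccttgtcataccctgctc
H1-5: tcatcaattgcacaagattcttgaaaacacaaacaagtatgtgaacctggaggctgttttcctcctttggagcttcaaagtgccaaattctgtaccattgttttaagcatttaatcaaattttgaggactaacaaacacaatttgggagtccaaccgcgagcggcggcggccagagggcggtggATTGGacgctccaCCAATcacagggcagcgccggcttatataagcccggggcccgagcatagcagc
Entries were found for 42 of the 47 genes. The octamer lay in 9 of 11 promoters of H2A genes and 10 of 14 of H2B genes, in none of 7 for H3, 8 for H4 or 4 for H1, and in 1.63% of all 35093 promoters of the table. CCAAT was in every H1, H2A, H2B and H3 promoter, in 2 of 8 H4 promoters and in 32.0% of all. TATAAA lay in 2 of 4 H1, 9 of 11 H2A, 9 of 14 H2B, 5 of 7 H3 and 5 of 8 H4 promoters, and in 10.7% of all. A match or its absence in this window says nothing on which factor acts there, and its relation to the reversals was not tested.

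**Figure D2:**
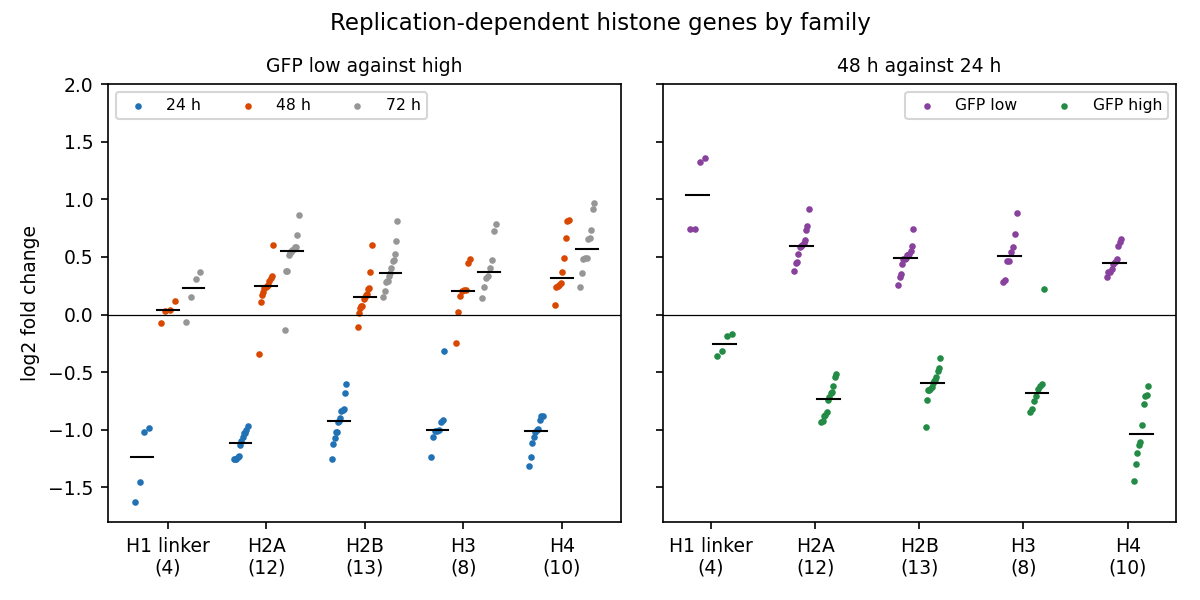
Each point is 1 of the 47 tested histone genes, by family (number of genes in brackets), with black bars at the medians. The left panel gives the log2 fold change of GFP low against high at 24, 48 and 72 h, and the right panel the log2 fold change of 48 against 24 h within each GFP fraction; core families cross 0 between 24 and 48 h, and GFP low rises while GFP high falls.

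Other short transcripts without a poly(A) tail were among the largest single reversals. RN7SL1, the RNA of the signal recognition particle, which brings ribosomes to the endoplasmic reticulum, lay at 2020, 2050 and 2230 CPM in GFP high and 1050, 1100 and 1460 CPM in GFP low at 24 h. Then, at 48 h, it lay at 587, 783 and 860 CPM in GFP high and 1650, 1230 and 1600 CPM in GFP low. The fractions did not overlap at either time, which was a condition for the reversals taken by size. The change of RN7SL1 was 1.80 ± 0.18 (adjusted p = 3.11e-08). Of the spliceosomal RNAs, RNU4-1 (0.86 to 4.13 CPM in the 12 libraries) changed by 1.79 ± 0.31 and RNU5F-1 (1.91 to 4.49 CPM) by 1.72 ± 0.15. These are families of near-identical copies whose reads may be split or lost in counting. Small nuclear, nucleolar and Cajal body RNAs as a class did not share the pattern, with a median change of -0.03. Among them 30 of 216 were called upward and 9 downward (22.1% and 21.4% of all tested genes were).

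A number of genes of low level led the list of single changes. HBD, the delta globin gene, lay at 3.29, 3.17 and 3.12 CPM in GFP high and 1.02, 1.28 and 0.903 CPM in GFP low at 24 h, and at 2.15, 2.30 and 2.22 against 3.16, 2.84 and 3.17 CPM at 48 h. It changed by 2.06 ± 0.22 (adjusted p = 6.35e-08), with no overlap of the fractions at either time. Of 7 erythroid markers 6 lay under 1 CPM in all libraries of the series, and HBA1 was at 0. In the other direction, AHNAK, which encodes a giant scaffold protein, lay at 1.76, 1.55 and 1.14 CPM in GFP high and 7.85, 6.16 and 6.71 CPM in GFP low at 24 h. By 48 h it was at 2.47, 2.46 and 2.50 CPM against 2.34, 2.10 and 1.85 CPM, and its difference had gone from 2.25 ± 0.15 to -0.25 ± 0.16. NFATC2, a calcium-regulated transcription factor, lay at 0.374 to 0.542 CPM in GFP high and 6.49 to 7.66 CPM in GFP low at 24 h. Its difference passed from 4.01 ± 0.16 to 2.69 ± 0.16, so that it faded in part and still stood far apart at 48 h.

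Larger reversals from high to low were OVGP1 (1.18 ± 0.22 to -0.67 ± 0.19), the mitochondrial fatty acid importer CPT1B (0.84 ± 0.16 to -0.46 ± 0.16), the nicotinic receptor subunit CHRNA6 (0.42 ± 0.12 to -0.69 ± 0.12) and the protease ADAMTS12 (0.39 ± 0.11 to -0.68 ± 0.12). All 4 lay under 6 CPM in each of the 12 libraries, so their counts are small beside those of the histones. In OVGP1 GFP high rose with time by 1.62 while GFP low moved by -0.22. GFP low moved more in 680 of the 833 reversals. Among the large ones GFP high also moved more in RN7SL1 (-1.5 against 0.31 in GFP low) and H4C3 (-1.2 against 0.48). MALAT1, an abundant nuclear noncoding RNA, reversed at 2840 to 4310 CPM, from 0.40 ± 0.02 to -0.23 ± 0.02.

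Genes of the protein-making and energy machinery were a large block of fading. Ribosomal proteins form the ribosome with ribosomal RNA. Of 78 tested, 77 were called upward and none downward (22.1% and 21.4% of all tested genes were). Their median difference went from -0.71 to 0.00, with 62 faded to no call, 13 faded in part and 2 reversed. With the library set as a block, 21 of the 78 reversed, as did 12 of 48 respiratory chain genes (2 without the block) and 10 of 61 mitochondrial ribosomal proteins (3 without it). Over all 16474 tested genes the block also raised the count of reversals, from 833 to 1520. RPS3A lay at 996, 970 and 965 CPM in GFP high and 343, 331 and 327 CPM in GFP low at 24 h, without overlap. By 48 h the values were 988, 981 and 975 CPM in GFP high and 1000, 987 and 976 CPM in GFP low, where the ranges overlapped. Its change was 1.56 ± 0.03 (adjusted p = 1.05e-19), with a time change of 1.57 in GFP low and 0.01 in GFP high. RPS18 faded in part, from -1.22 ± 0.01 to -0.05 ± 0.01, and RPSA went from -0.95 ± 0.02 to 0.02 ± 0.02. In GFP high, 61 of the 78 fell with time (9.97% of all tested genes did), with a median of -0.12. In GFP low, 77 rose (25.7% of all did), with a median of 0.55.

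Mitochondrial ribosomal proteins followed with 58 of 61 upward and 1 downward (22.1% and 21.4% of all tested genes were). Their median passed from -0.58 to -0.01. MRPL15 went from -0.80 ± 0.02 to -0.06 ± 0.02. MRPS27 instead reversed, lying at 278, 274 and 275 CPM in GFP high against 208, 209 and 208 CPM in GFP low at 24 h, and at 277, 276 and 274 CPM against 307, 310 and 308 CPM at 48 h. Its level in GFP high stayed within 274 to 278 CPM while that in GFP low passed it. Nuclear genes of the respiratory chain and ATP synthase, which make most of the cell's ATP, had 43 of 48 upward and 2 downward. The shares of all tested genes were 22.1% and 21.4%, and the list had medians of -0.67 and 0.00. ATP5F1B, the catalytic subunit of ATP synthase, went from -0.54 ± 0.02 to 0.02 ± 0.02. SDHA, a subunit of complex II, was an exception with 0.11 ± 0.04 and -0.10 ± 0.04; its change was not called without library set 1 (-0.198), with no filter on low counts (-0.183) or with the length trend removed.

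The genes of the mitochondrial genome did not follow their nuclear partners. Of 13 tested, 3 were called upward and 1 downward (22.1% and 21.4% of all tested genes were), and the median difference was -0.42 at both times. At 72 h 12 of the 13 were higher in GFP low (12.9% of all tested genes were), with a median of 0.53. MT-CO2, a subunit of cytochrome oxidase, lay at 5240, 4920 and 5030 CPM in GFP high and 2990, 2900 and 2950 CPM in GFP low at 24 h. The values at 48 h were 3720, 3650 and 3770 CPM in GFP high and 2760, 2780 and 2720 CPM in GFP low. GFP low stayed below GFP high, the gap narrowing from -0.78 ± 0.02 to -0.43 ± 0.02 through a fall of 0.45 in GFP high with time. With the length trend removed the direction turned, from -0.04 at 24 h to -0.44 at 48 h, a change of -0.40. MT-ND6, whose template is the other strand of the mitochondrial genome, was the one called downward, from 0.05 ± 0.05 to -0.23 ± 0.05. With the library set as a block 6 of the 13 were called upward and 3 downward. At 24 h the mitochondrial share of counts was 4.27% to 4.62% with high and 3.48% to 3.64% with low GFP; at 48 h it was 3.63% to 3.78% and 2.87% to 2.95%.

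Genes that keep proteins in order faded too. The proteasome, which degrades tagged proteins, had 26 of 32 subunits called upward and 2 downward (22.1% and 21.4% of all tested genes were). Their medians were -0.44 and -0.04. PSMB3 went from -0.93 ± 0.03 to 0.06 ± 0.03 and PSMA7 from -0.72 ± 0.02 to -0.06 ± 0.02. PSMA2 went the other way, with 0.04 ± 0.08 at 24 h and -0.52 ± 0.08 at 48 h. Of 23 chaperone genes 17 were called upward and none downward (22.1% and 21.4% of all tested genes were). Among the 17 were HSPA8, the constitutive HSP70 (-0.77 ± 0.01 to -0.02 ± 0.01), and CCT5 of the chaperonin ring (-0.62 ± 0.02 to -0.05 ± 0.02).

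**Figure D3:**
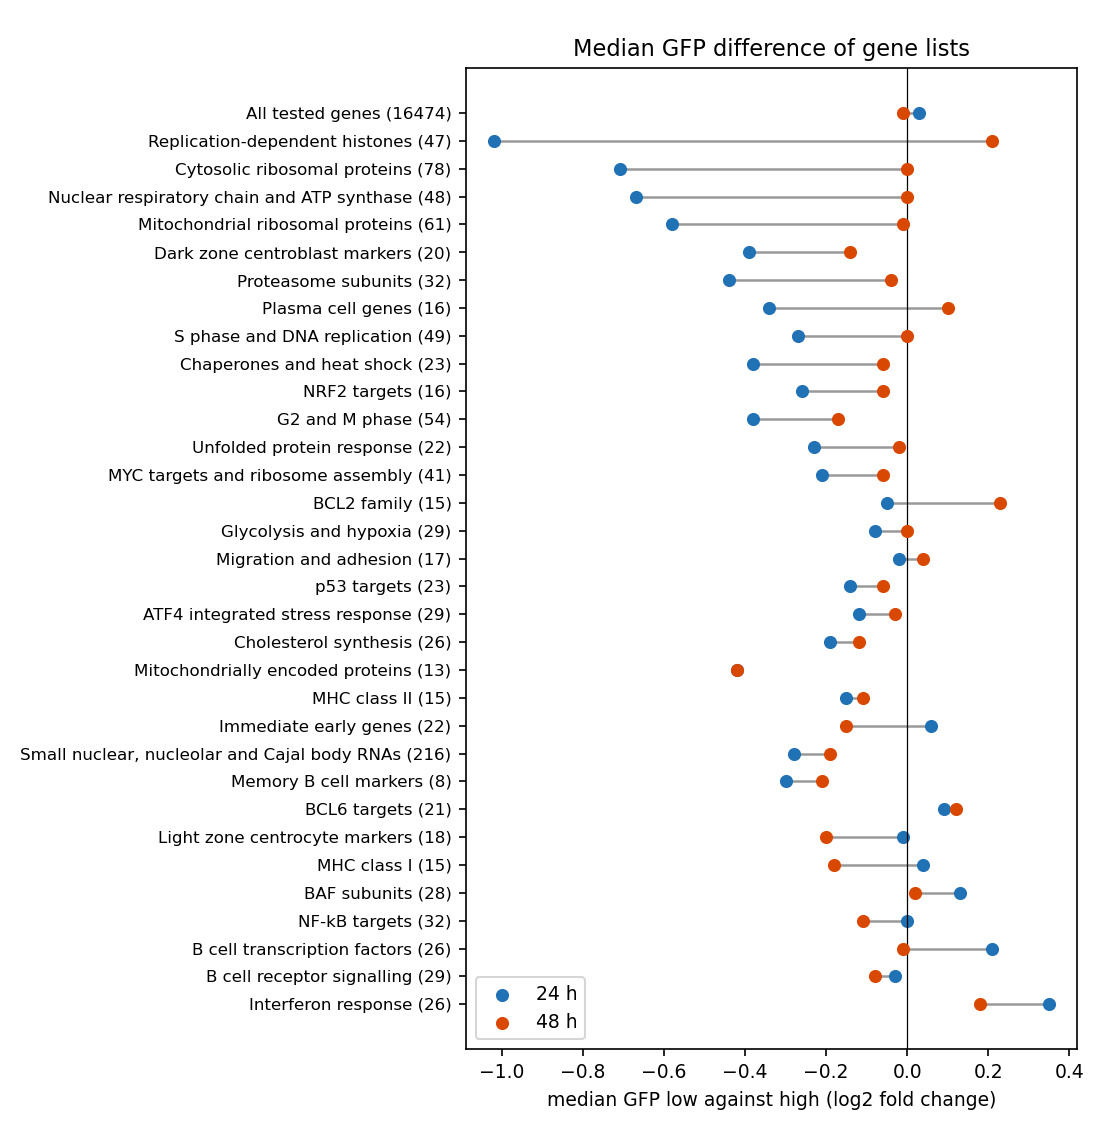
Each row is a gene list (number of tested members in brackets), with its median log2 fold change of GFP low against high at 24 h (blue) and at 48 h (orange), in the order of the median change, and all tested genes on top. Histones cross from -1.02 to 0.21, cytosolic ribosomal proteins move from -0.71 to 0.00, and the mitochondrially encoded genes stay at -0.42.

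Genes of cell division were called upward more often than downward. Of 54 genes of G2 and M phase 32 were called upward and 9 downward (22.1% and 21.4% of all tested genes were). The median difference went from -0.38 to -0.17. At 48 h 45 of the 54 were lower in GFP low (13.2% of all tested genes were), and 26 had faded in part. BIRC5, or survivin, which guards chromosome separation, lay at 174, 174 and 172 CPM in GFP high and 81.1, 78.9 and 78.2 CPM in GFP low at 24 h. It lay at 179, 177 and 178 CPM against 178, 175 and 179 CPM at 48 h, where the ranges overlapped. CCNA2, cyclin A, faded in part, from -0.84 ± 0.02 to -0.14 ± 0.02.

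MKI67, CENPF and CENPE reversed downward in the same list. MKI67, which coats mitotic chromosomes and encodes the Ki-67 antigen, lay at 979, 937 and 929 CPM in GFP high and 1210, 1150 and 1160 CPM in GFP low at 24 h. The levels at 48 h were 1080, 1040 and 1050 CPM in GFP high and 938, 899 and 902 CPM in GFP low, with no overlap at either time. Its difference went from 0.31 ± 0.02 to -0.21 ± 0.02, a change of -0.52 ± 0.03 (adjusted p = 5.42e-11). The kinetochore genes CENPF and CENPE went from 0.35 ± 0.02 to -0.15 ± 0.02 and from 0.19 ± 0.03 to -0.24 ± 0.03. CENPE no longer differed at 24 h with the trend on exon length removed (0.03), whereas MKI67 and CENPF remained reversals.

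Of 49 genes of S phase and DNA replication 34 were called upward and 2 downward (22.1% and 21.4% of all tested genes were). The medians were -0.27 at 24 h and 0.00 at 48 h. PCNA, the sliding clamp of the replication fork, went from -0.89 ± 0.02 to -0.06 ± 0.02, and RRM2, which makes deoxynucleotides, from -0.62 ± 0.02 to 0.01 ± 0.02. POLE, the catalytic subunit of a replicative polymerase, reversed from 0.23 ± 0.04 to -0.12 ± 0.03, but was not called in the change with the length trend removed. Of 41 MYC targets and ribosome assembly genes 19 were called upward and 10 downward (22.1% and 21.4% of all tested genes were). ODC1, the first enzyme of polyamine synthesis, went from -0.88 ± 0.02 to -0.12 ± 0.02 and LDHA, lactate dehydrogenase, from -0.84 ± 0.02 to -0.06 ± 0.02. POLR1A, the large subunit of RNA polymerase I, went down from 0.34 ± 0.03 to -0.01 ± 0.03, and NCL, nucleolin, from 0.06 ± 0.02 to -0.13 ± 0.02; with the length trend removed neither was called in the change.

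Lists of B cell signalling held more genes called downward than upward. Other lists of B cell states did not: of 20 dark zone markers 12 were called upward and 1 downward (4 with the library set as a block), of 21 BCL6 targets 7 and 8, and of 8 memory markers 3 and 2. The shares over all tested genes were 22.1% upward and 21.4% downward. Of 32 NF-kB targets 4 were called upward and 15 downward (7 and 18 with the block), with a median difference of 0.00 at 24 h and -0.11 at 48 h. Of 18 light zone markers 4 were called upward and 8 downward, with medians of -0.01 and -0.20, and of 29 genes of B cell receptor signalling 4 upward and 18 downward, 7 of the 29 having grown. In GFP low, 25 of the 32 NF-kB targets fell with time (25.1% of all tested genes did) and none rose (25.7% of all), and in GFP high 21 fell (9.97% of all) and 3 rose (10.6% of all).

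EGR1, a transcription factor switched on by antigen receptor signals, lay at 13.2, 11.9 and 13.7 CPM in GFP high and 16.7 to 17 CPM in GFP low at 24 h. At 48 h it lay at 10.9, 11.4 and 11.2 CPM in GFP high and 8.37, 8.59 and 7.91 CPM in GFP low, so that the fractions changed places without overlap. Its difference went from 0.37 ± 0.06 to -0.43 ± 0.07, a change of -0.81 ± 0.09 (adjusted p = 2.93e-07). LMO2, a germinal centre transcription cofactor, went from 0.12 ± 0.05 to -0.48 ± 0.05. The NF-kB subunit REL went from 0.36 ± 0.03 to -0.20 ± 0.03, and NFKB2 from 0.47 ± 0.03 to -0.07 ± 0.03, where it was not called at 48 h. All 4 kept their direction with the length trend removed.

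LTB, a lymphotoxin subunit, was low in GFP low at 24 h and lower still at 48 h. It lay at 43.9, 42.6 and 46.7 CPM in GFP high and 19.9, 20.9 and 21.6 CPM in GFP low at 24 h, and at 34.0, 35.8 and 37.9 CPM against 12.6 to 14.5 CPM at 48 h. Its difference grew from -1.09 ± 0.06 to -1.42 ± 0.06, and the change of -0.33 ± 0.08 (adjusted p = 0.00225) was not called without library set 1 (-0.259). The chemokines CCL3 and CCL4 differed from these targets, going from -0.93 ± 0.05 to 0.06 ± 0.05 and from -1.38 ± 0.07 to -0.14 ± 0.08. For both the movement lay in GFP high, where CCL3 fell by 1.07 and CCL4 fell by 1.19 with time, while GFP low moved by -0.08 and 0.05.

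Among receptor signalling genes, PLCG2, which produces the calcium signal, faded in part from 0.46 ± 0.02 to 0.13 ± 0.02. INPP5D, the phosphatase SHIP1, reversed from 0.34 ± 0.03 to -0.08 ± 0.03. PTPN6, the phosphatase SHP1, grew from -0.12 ± 0.04 to -0.52 ± 0.04. CD79B, a chain of the receptor itself, reversed upward from -0.16 ± 0.04 to 0.27 ± 0.04, although with the length trend removed it was not called in the change. Of 26 B cell transcription factors 3 were called upward and 13 downward (22.1% and 21.4% of all tested genes were). Their median passed from 0.21 to -0.01.

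Antigen presentation showed both kinds of change. CIITA, the master activator of MHC class II, reversed from 0.31 ± 0.03 to -0.18 ± 0.03, and TAPBP, which loads peptide on MHC class I, from 0.25 ± 0.04 to -0.29 ± 0.04. MARCHF1, whose ubiquitin ligase lowers surface MHC class II, grew from -0.48 ± 0.10 to -1.39 ± 0.12. It lay at 1.45 to 1.64 CPM in GFP low at 48 h, against 3.77 to 4.27 CPM in GFP high. HLA-DRA, a class II chain, faded in part from -0.73 ± 0.02 to -0.11 ± 0.02. Of the 15 class I and the 15 class II genes, 4 and 5 were called upward and 6 and 5 downward. Among all tested genes 22.1% were called upward and 21.4% downward.

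Of 16 plasma cell genes 10 were called upward and 4 downward (22.1% and 21.4% of all tested genes were). Their medians were -0.34 and 0.10. JCHAIN, which links antibody units, lay at 723, 703 and 671 CPM in GFP high and 288, 286 and 266 CPM in GFP low at 24 h, and at 778, 763 and 746 CPM against 851, 828 and 802 CPM at 48 h. The fractions did not overlap at either time, and the difference went from -1.32 ± 0.04 to 0.12 ± 0.03. XBP1, a transcription factor of secretory cells, reversed from -0.47 ± 0.02 to 0.12 ± 0.02. CD38 grew from -0.92 ± 0.04 to -1.12 ± 0.04; its change of -0.20 ± 0.06 (adjusted p = 0.00759) was not called without GFP low 48 h of the unnumbered set (-0.136), without library set 1 (-0.16), with no filter on low counts (-0.171) or with the length trend removed. Of 26 interferon response genes 2 were called upward and 7 downward (22.1% and 21.4% of all tested genes were), their median passing from 0.35 to 0.18.

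Death regulators moved in both directions. BID, which links death receptors to mitochondria, appeared at 48 h, from -0.04 ± 0.03 to 0.38 ± 0.03, with 51.1 to 52.8 CPM in GFP high and 66.1 to 69.0 CPM in GFP low. BIK, a killer of the BCL2 family, reversed from -0.43 ± 0.06 to 0.42 ± 0.06. BMF, of the same family, faded in part from 0.95 ± 0.05 to 0.70 ± 0.05. Of the 15 tested genes of the family 6 were called upward and 2 downward (22.1% and 21.4% of all tested genes were), with medians of -0.05 and 0.23.

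Differences that grew or appeared were few, but some were among the larger ones at 48 h. TP53INP1, a p53 target, lay at 6.30, 5.95 and 5.61 CPM in GFP high and 8.60, 8.72 and 7.86 CPM in GFP low at 24 h. At 48 h it lay at 9.68, 9.50 and 8.74 CPM in GFP high and 24.2, 24.0 and 23.0 CPM in GFP low, so that both fractions rose and GFP low rose more. The difference grew from 0.50 ± 0.06 to 1.36 ± 0.05, a change of 0.86 ± 0.08 (adjusted p = 2.8e-08), and it was 1.29 at 72 h. GPR183, a receptor that guides B cells out of the follicle, grew from 0.54 ± 0.07 to 1.2 ± 0.08 through a fall of 0.53 in GFP high, but it was not called in the change with the length trend removed. CXCR4, the receptor that holds centroblasts in the dark zone, grew from 0.14 ± 0.03 to 0.54 ± 0.03 with the same exception. PDE4B, which breaks down cyclic AMP, grew from 0.66 ± 0.09 to 1.32 ± 0.08. CCR7, the homing receptor for T cell zones, instead faded in part from 2.08 ± 0.09 to 1.15 ± 0.10 and was at 0.37 at 72 h.

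ID3, an inhibitor of E proteins that is often mutated in Burkitt lymphoma, was not called at 24 h. It lay at 10.2, 10.2 and 11.3 CPM in GFP high and 11.4, 9.87 and 11.1 CPM in GFP low, with overlapping ranges. At 48 h it lay at 13.7, 13.9 and 15.1 CPM in GFP high and 25.9, 26.3 and 29.8 CPM in GFP low. The difference was 0.03 ± 0.08 and then 0.94 ± 0.07, a change of 0.91 ± 0.11 (adjusted p = 3.44e-07), and 0.93 at 72 h. LY86, a partner of the receptor RP105, appeared in the same way (0.09 ± 0.09 to 0.99 ± 0.09), and the homeobox gene CUX2 appeared downward (-0.09 ± 0.10 to -0.90 ± 0.10), both keeping their side at 72 h with 0.75 and -1.15. With the length trend removed, ID3 and LY86 already differed at 24 h (0.49 and 0.63) and were classed as grown.

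**Figure D4:**
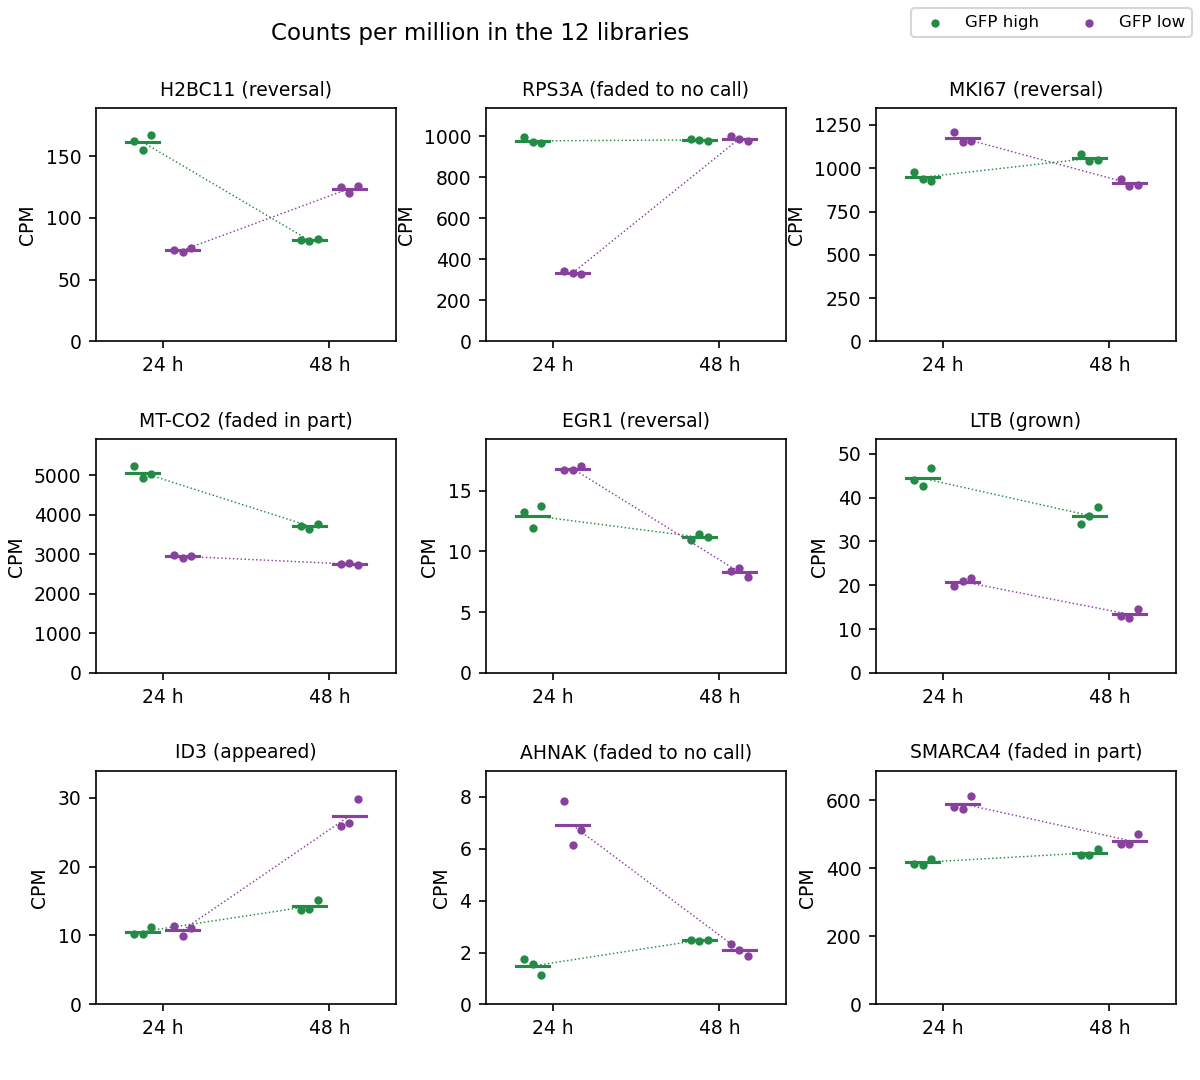
Panels show 9 genes, named with their class, in CPM (y axis, from 0) in the 3 GFP high (green) and 3 GFP low (purple) libraries at 24 and at 48 h; short bars are group means, joined by dotted lines. H2BC11, MKI67 and EGR1 change places, RPS3A of GFP low reaches GFP high, MT-CO2 and LTB stay apart, and ID3 separates at 48 h only.

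The gene whose protein the degron acts on is itself part of the fading. SMARCA4 mRNA lay at 414, 411 and 429 CPM in GFP high and 580, 575 and 614 CPM in GFP low at 24 h, and at 440, 440 and 457 CPM against 473, 472 and 501 CPM at 48 h. GFP low was above GFP high at both times without overlap, and the change was -0.38 ± 0.04 (adjusted p = 1.3e-07). The mRNA level is no measure of how much protein was left. The alternative motor SMARCA2 faded in part from 0.39 ± 0.03 to 0.12 ± 0.03, and was not called in the change with the length trend removed. Of 28 tested BAF subunits 5 were called upward and 14 downward (22.1% and 21.4% of all tested genes were), with medians of 0.13 and 0.02. Of the 28, 14 faded to no call, 5 faded in part and none reversed. ARID1A, a DNA-binding subunit, went from 0.47 ± 0.03 to -0.04 ± 0.03 and its paralog ARID1B from 0.43 ± 0.02 to 0.00 ± 0.02. With the length trend removed ARID1B was not called at 24 h (0.06) and its change was -0.10. BICRAL faded in part from 0.73 ± 0.03 to 0.19 ± 0.03. ACTL6A, an actin-related subunit, moved upward from -0.64 ± 0.03 to -0.05 ± 0.03. With the library set as a block 2 of the 28 reversed, ARID1A among them (1520 of all 16474 tested genes did).

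The change ran with exon length across genes. Length is the summed length of a gene's exons in the deposited table, and 10133 protein-coding genes at 1 CPM or more on average were used. Across these genes, which share the same libraries and are not independent, Spearman's rho of length was 0.47 with the difference at 24 h, -0.03 with that at 48 h and -0.49 with the change. The time change within GFP low had a rho of -0.43 and that within GFP high of 0.30. Genes of up to 1000 bp (125 genes) had medians of -0.74 at 24 h, 0.06 at 48 h and 0.74 for the change, and genes above 16000 bp (358 genes) had 0.27, -0.01 and -0.28. Called genes ran from 80.0% upward and 1.6% downward in the shortest bin to 11.2% and 64.0% in the longest. With the length of the principal transcript in place of the summed exons, rho with the change was -0.52.

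Reversals were arranged by length as well. Those from low to high made up 20.8% of genes in the shortest bin and 0.279% in the longest, and those from high to low made up 0.0% and 12.8%. The median length was 3110 bp for the former and 8540 bp for the latter. The histones are 29 of the 125 genes of up to 1000 bp; the other 96 had medians of -0.60 at 24 h and 0.03 at 48 h, and 5 of them reversed. Length is confounded here with gene group, because histones, ribosomal proteins (median 3210 bp) and respiratory chain genes (median 2470 bp) are short and BAF subunits (median 7660 bp) long, so the 2 cannot be told apart.

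Removing a smooth trend on length, fitted on those protein-coding genes, from each library left 7377 genes called in the change, 2980 upward and 4397 downward, beside 3636 and 3523 without the removal. The median change of all tested genes was then -0.116, against -0.025 before, and directions in that fit are read relative to it. Over all 16474 tested genes, noncoding ones included, rho of length with the change went from -0.24 to 0.35 and with the difference at 24 h from 0.23 to -0.34, so that the removal left a trend of the opposite sign there. In both fits 4980 genes were called in the same direction and 117 in opposite ones, 2062 were called only without the removal and 2280 only with it. That fit had 717 reversals, and 465 of them were among the 833, which is 53.2% of those from high to low and 60.1% of those from low to high. Of the 833, 175 became differences that appeared at 48 h, since the value at 24 h no longer passed. Among the reversals named above, CIITA, ADAMTS12, CENPE, RN7SL1 and RNU5F-1 appeared at 48 h in that fit, JCHAIN and INPP5D faded to no call, BIK grew and RNU4-1 was not called. RNU4-1 and RNU5F-1 are shorter than the shortest gene used for the trend (207 bp). With the library set as a block, NFKB2, PSMB3 and SDHA were reversals.

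Counts by gene group also moved with the removal. They stand beside 2980 upward and 4397 downward among all 16474 tested genes in that fit. Ribosomal proteins then had 72 of 78 called upward and 1 downward, with a median change of 0.51, and the respiratory chain 37 of 48 upward and 3 downward, with 0.28. Histones had 43 of 47 upward and 26 reversals, their median difference being -0.33 at 24 h and 0.21 at 48 h. They make up 22 of the 44 genes of up to 600 bp that shape the trend there; with the trend fitted without them, 31 reversed. The mitochondrially encoded genes turned over, with none of 13 upward and 13 downward and a median change of -0.58, and the small nuclear, nucleolar and Cajal body RNAs had 1 upward and 119 downward, most of them shorter than the shortest gene in the trend (207 bp). BAF subunits had 3 of 28 upward and 8 downward, with a median change of -0.01 against -0.12 before and a median difference of 0.02 at 24 h. The change of SMARCA4 was -0.15 in that fit, from differences of 0.28 at 24 h and 0.13 at 48 h. Of the 104 genes examined singly, the change became over 1.5 times smaller or turned for 53 and over 1.5 times larger for 3.

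**Figure D5:**
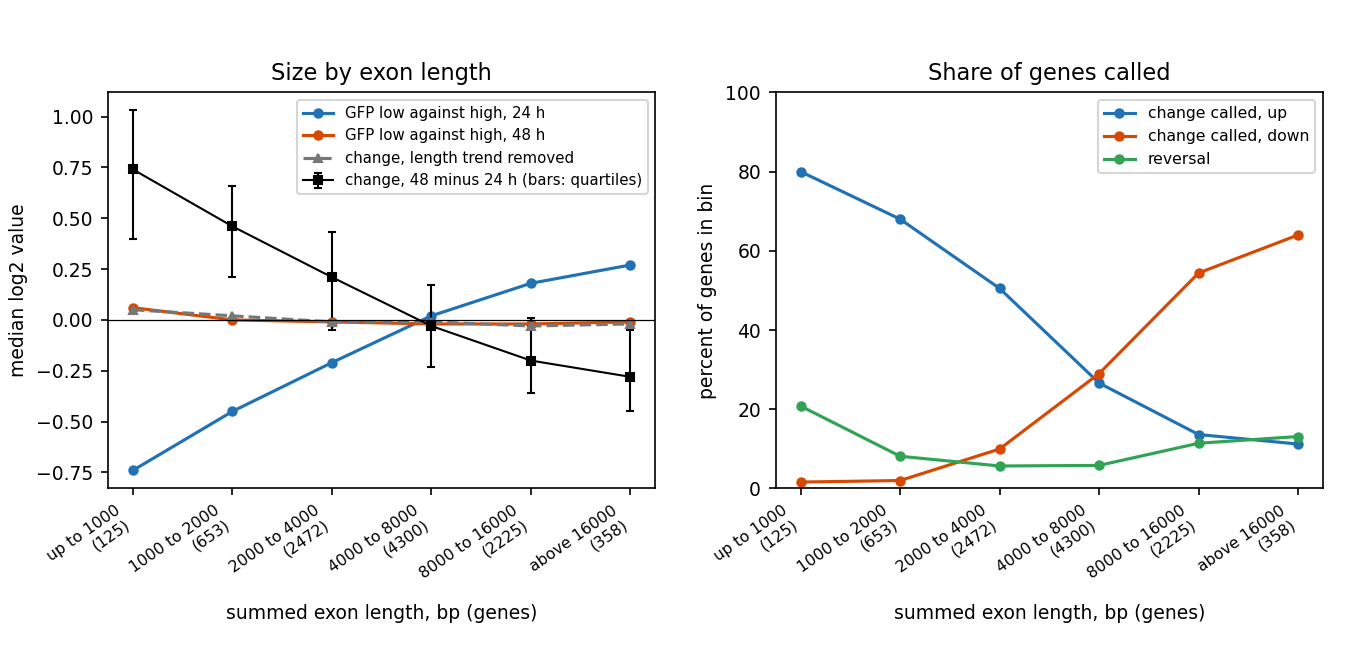
The left panel gives, for protein-coding genes in 6 bins of summed exon length (number of genes in brackets), the median log2 difference at 24 h and at 48 h and the median change with its quartiles, before and after removal of the length trend. The right panel gives the percent of genes called in the change in each direction and the percent that reversed; the median change falls from 0.74 in the shortest bin to -0.28 in the longest, and lies within 0.05 of 0 after the removal.

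Markers of another lineage moved with the groups. The 12 T cell markers had a summed level of 49.7 to 53.2 CPM in GFP high and 28.3 to 31.6 CPM in GFP low at 24 h, and of 49.1 to 52.0 and 41.8 to 46.1 CPM at 48 h. CD8A was at 0 in all libraries and 5 of the 12 lay under 1 CPM throughout. Of the 8 that were tested, 5 were called upward and none downward (22.1% and 21.4% of all tested genes were). LCK, a kinase that B cell tumours can also express, went from -1.13 ± 0.09 to -0.45 ± 0.08, and TRBC2 from -0.71 ± 0.05 to 0.06 ± 0.05. CD3D, at 3.39 CPM or less, went from -1.46 ± 0.19 to -0.44 ± 0.18, and its change was not called without the unnumbered library set (0.816). With the length trend removed, neither CD3D nor TRBC2 was called in the change. The summed level of 9 myeloid markers was 2.62 CPM or less and that of 10 epithelial, kidney or fibroblast markers 10.7 CPM or less. The part of these genes in the results above was not tested.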

How the data were processed

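Total RNA of Raji cells was made into libraries with a kit that removes ribosomal RNA, per the labels' protocols. The authors deposited raw read counts for each gene, beside its summed exon length, in columns that per the file headers are those of featureCounts. Per the submitters' processing notes, STAR, featureCounts from Subread, R 4.2.1 and hg38 were used; for annotation release, strand setting and multiply mapped reads nothing is given in the sources used here. Of 60710 lines, 60707 genes were read; a gene with an entry broken over 3 lines was left out.

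Counts of all 18 libraries were fitted as 6 group means with edgeR 4.0.16 in R 4.3.3 (filterByExpr, TMM, quasi-likelihood F test, 12 residual degrees of freedom, 2-sided, Benjamini-Hochberg over 16474 genes). DESeq2 1.42.0 was an alternative. A length trend (lowess, span 0.3, protein-coding genes of at least 1 CPM) entered as offsets. The fit was tested on simulated data. Column names give group and library set, not which sample. Libraries of the same set deviated together (18 pairs, r 0.223 to 0.525), so sets pair them; the block is an alternative.

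Named genes were called, had at least 1 CPM and had no overlap of the paired differences. They were the largest changes by class or the lowest adjusted p in each list, and BAF subunits were always eligible. Reversals taken by size also had to show no overlap of libraries at either time, so that trait was fixed for them. The members, lists and tests were chosen with earlier results of these data known. Human promoter sequences are RefSeq's, and gene types come from GENCODE release 29. Not every eligible gene is named.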

Additional observations from a re-analysis of the deposited data

Results flagged for a closer look

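The GFP difference itself differed between the times: the change was tested gene by gene, and 7159 genes were called in it, of which 833 reversed. Of the reversals that the rule for named genes takes, 10 differed by at least 1.5-fold at both times with no overlap of libraries at either. The lack of overlap was a condition of the choice and is not a result. The histone genes H4C11, H2BC11, H4C12, H4C3 and H2AC15 had changes of 1.81, 1.72, 1.69, 1.69 and 1.57 on the log2 scale. The small RNAs RN7SL1, RNU4-1, RNU5F-1 and RN7SL4P had 1.80, 1.79, 1.72 and 1.55, and RN7SL4P is annotated as a copy of the 7SL gene, so its reads are uncertain. OVGP1 alone of these went downward, with -1.84. With the length trend removed, H2BC11, H4C3 and OVGP1 were still reversals, H4C11, H4C12, H2AC15, RN7SL1 and RNU5F-1 were called at 48 h and not at 24 h, and RNU4-1 and RN7SL4P were not called in the change. RNU4-1 (141 bp) and RNU5F-1 (117 bp) are shorter than the shortest gene in the trend (207 bp), so no trend was fitted at their length.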

How the results depend on the processing

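Normalization (RLE or upper-quartile factors), DESeq2, the count filter and the use of 12 libraries kept the count of genes called in the change, of reversals and of the other classes within 1.5 times. The median change of all genes was -0.012 with RLE and -0.076 with upper-quartile factors.

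With the library set as a replicate block, 1520 genes reversed, 1641 faded in part, 201 grew, and 5394 were called with time in GFP high; with the length trend removed as well, these were 1325, 1517, 252 and 5275. The block ended the call in the change of none of the 104 genes examined. At an adjusted p under 0.01, 463 reversed, 565 faded in part, 58 grew, 317 appeared, and 2524 were called at 48 h, 2859 at 72 h and 1965 with time in GFP high. Of the 833 reversals 419 were reversals in each of 6 fits. Over all tested genes, rho of length was -0.24 with the change and 0.23 with the difference at 24 h.

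In the fit with the length trend removed, the median change of all genes was -0.116. The change of 6 genes turned sign there: MT-CO2 (-0.398), MT-CO3 (-0.513), MT-ND3 (-0.772), CD83 (-0.169), CD79A (-0.279) and DUSP5 (-0.05, which lies above that median). With the block added these were -0.399, -0.514, -0.774, -0.169, -0.278 and -0.0496, and with histones left out of the trend, an alternative chosen after seeing the data, -0.337, -0.461, -0.656, -0.166, -0.263 and -0.0474. MT-ND3 was also not called without GFP high 24 h of the unnumbered set (0.158). With the trend from all genes, also chosen after seeing the data, CD83 had -0.0198. The cause was not tested. Of the 104 genes, 80 kept direction and call under every alternative of the 27 in which they were tested and 24 did not; OVGP1 was left out by the filter of 1 CPM on the mean.

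Leaving out each library, or a whole set (added after seeing the data), gave 5544 to 6982 genes called in the change, 8116 to 9615 at 24 h, 2149 to 3985 at 48 h, 2495 to 4416 at 72 h, and with time 7006 to 8427 in GFP low and 1637 to 3447 in GFP high. Reversals ranged from 364 to 818, faded in part from 442 to 990, faded to no call from 4163 to 4774, grown from 53 to 108, appeared from 272 to 499 and neither from 208 to 248. Values more than 1.5 times off came only without a whole set, the unnumbered one (364 reversals) or set 1 (406).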
